A study of Mus musculus with 6 samples.

Results

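Chil3, Chil4, Retnla, Ear3 and Rnase2a are 5 of the 754 genes measured in sorted peritoneal macrophages of mice with ovarian tumors. They encode 2 chitinase-like proteins, a resistin-like protein and 2 secreted ribonucleases, and they were selected by name, with their levels in the groups compared here already known. Their differences between the groups are therefore given as a description, with no test. The question was whether these type 2 effector transcripts moved together after IRF5 nanoparticles (IRF5-NPs), or whether the chitinase-like pair alone was lower. The pair was 37.6-fold and 40.0-fold lower after IRF5-NPs, Retnla differed by less than the spread between samples, and the ribonucleases were measured close to the background of the assay.

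Type 2 immunity is the response to parasitic worms, allergens and tissue injury, in which the cytokines IL-4 and IL-13 act through the IL-4 receptor alpha chain and the transcription factor STAT6. Macrophages that receive these signals, often called alternatively activated or M2, make the mannose receptor and large amounts of secreted effectors. Chil3 and Chil4 encode the proteins Ym1 and Ym2, which resemble chitinases but lack the enzyme activity. Retnla encodes RELM alpha, also called Fizz1, a small secreted protein of the resistin family. Ear3 and Rnase2a belong to the ribonuclease A family of rodents, whose eosinophil members are granule proteins. Chil3 and Retnla are widely used as markers of type 2 activation in mouse macrophages.

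According to the sample labels, all 6 samples came from adult C57BL/6J mice injected with ID8 cells, a mouse ovarian surface epithelial tumor line, 7 weeks before treatment. Of these, 3 samples came from mice given 2 intraperitoneal injections of PBS, on days 1 and 5, and 3 from mice given nanoparticles on the same days, each dose with 30 µg of mIRF5 mRNA. Peritoneal cells were collected by lavage and sorted as F4/80+, CD11b+ cells, and total RNA was measured with the NanoString nCounter assay, which counts color-coded probes without amplification. The study's methods describe particles that also carry mRNA for the kinase IKKβ, a higher dose and a shorter tumor period than the labels, ID8 cells made to express VEGF, and female hosts of the albino strain C57BL/6J-Tyr<c-2J>. IRF5 is a transcription factor of inflammatory macrophages, and the particles carry di-mannose, which binds the mannose receptor. No sample with particles carrying a control mRNA was analysed here, so that effects of the particle and of the mRNA cannot be told apart. The labels do not say whether the samples of a group came from separate animals, and p-values then measure only the spread between these samples. In bulk RNA of sorted cells, fewer cells of a type and less RNA per cell cannot be told apart.

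Some samples stood apart from the rest. PBS replicates 2 and 3 differed by no more than sampling noise (chi-square over degrees of freedom 1.07 for the gene counts, p = 0.0782), whereas PBS replicate 1 differed from them with ratios of 179 and 158. The mean log2 value of PBS replicates 2 and 3 therefore stood for 1 sample, and the comparison held 2 PBS and 3 IRF5-NP samples. IRF5-NP replicate 1 likewise differed from IRF5-NP replicates 2 and 3 with ratios of 97.7 and 54.0, against 7.07 between the latter. The values divided by each sample's scaling factor gave totals of 1830318, 1603281 and 1302733 counts for PBS replicates 1 to 3 and of 1293665, 1598272 and 683472 counts for IRF5-NP replicates 1 to 3. The background, set 2 SD above the mean of the negative controls in each sample, was 37.8, 29.8 and 28.1 normalized counts in the PBS samples and 37.2, 25.6 and 79.4 in the IRF5-NP samples. It was highest in IRF5-NP replicate 3, the sample with the fewest counts. The macrophage genes of the sorting markers, Adgre1 (F4/80) and Itgam (CD11b), were above background in all 6 samples. Adgre1 lay between 6523 and 25506 normalized counts and Itgam between 15177 and 36473, in both cases with the groups overlapping. The deposited values name no genome build, and the positions below are those of the RefSeq promoter table.

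RefSeq annotates Chil3 and Chil4 next to each other on chromosome 3, with 0 genes between them, Retnla on chromosome 16 and Rnase2a on chromosome 14. The 250 bases before the start of Chil3, Chil4 and Retnla are shown because the chitinase-like pair was low together and Retnla was not. They are RefSeq sequences of build GRCm38.p6, at chr3:106167565-106167814 on the minus strand for Chil3, chr3:106219480-106219729 on the minus strand for Chil4 and chr16:48842359-48842608 on the plus strand for Retnla, written 5′ to 3′ with matches to 4 motifs in capitals.
Chil3: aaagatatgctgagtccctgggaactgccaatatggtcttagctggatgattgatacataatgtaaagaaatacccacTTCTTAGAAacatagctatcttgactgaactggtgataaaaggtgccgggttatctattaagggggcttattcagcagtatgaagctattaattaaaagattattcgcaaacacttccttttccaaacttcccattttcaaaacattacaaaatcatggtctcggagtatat
Chil4: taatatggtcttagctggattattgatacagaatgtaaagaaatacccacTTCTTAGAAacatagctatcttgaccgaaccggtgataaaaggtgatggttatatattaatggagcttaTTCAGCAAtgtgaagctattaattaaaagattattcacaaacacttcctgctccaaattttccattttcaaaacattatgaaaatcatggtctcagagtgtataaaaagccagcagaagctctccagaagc
Retnla: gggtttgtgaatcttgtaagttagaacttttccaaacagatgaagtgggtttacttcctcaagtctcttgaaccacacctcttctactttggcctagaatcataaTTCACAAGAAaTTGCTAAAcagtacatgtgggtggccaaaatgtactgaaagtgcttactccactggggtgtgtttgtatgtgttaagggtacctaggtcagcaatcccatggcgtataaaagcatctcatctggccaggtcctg

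The promoters of Chil3 and Chil4 aligned over 221 bases, of which 201 were identical (91.0%). Both hold the letters TTCTTAGAA, a match to the STAT motif TTCNNNGAA, at 172 to 164 bases before the start of Chil3 and 200 to 192 bases before the start of Chil4. Retnla holds no such match but 1 to the STAT6 motif TTCNNNNGAA, whose spacing is longer by 1 base. This match, TTCACAAGAA, lies 145 to 136 bases before the start, beside a C/EBP core (TTGCNNAA) match, TTGCTAAA, at 134 to 127, and the 2 matches do not overlap. Chil4 has a C/EBP core match on the opposite strand, TTCAGCAA, 131 to 124 bases before its start, and Chil3 has none. The interferon-stimulated response core, GAAANNGAAA, matched in none of the 4 promoters found, which include that of Rnase2a. On both strands of the 250 bases before the start, the STAT6 motif occurred in 5.85% of 32851 RefSeq promoters, the STAT motif in 7.02%, the interferon-stimulated response core in 2.98% and the C/EBP core in 9.56%. A match is a description of the letters and not of a bound site.

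Chil3 was measured at 17089, 23631 and 23215 normalized counts in PBS replicates 1 to 3 and at 822, 469 and 390 in IRF5-NP replicates 1 to 3. Every PBS sample was far above every IRF5-NP sample, and within each group replicate 1 lay on the side nearer to the other group. The PBS level was 20256 ± 4478 (SD, n = 2) and the IRF5-NP level 560 ± 230 (SD, n = 3), a log2 difference of -5.23 (standard error 0.34). All log2 differences are of IRF5-NPs minus PBS, on the scale of log2(normalized count + 1), which understates changes of low genes. The lowest IRF5-NP sample was still at 4.91 times its background, so that Chil3 transcript remained measurable in every treated sample.

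Chil4 was measured at 10706, 15441 and 15091 normalized counts in PBS replicates 1 to 3 and at 481, 272 and 247 in IRF5-NP replicates 1 to 3. Its order of samples was that of Chil3, with no overlap between the groups and the smallest gap between the replicates numbered 1. The group levels were 12985 ± 3224 (SD, n = 2) and 333 ± 128 (SD, n = 3), a log2 difference of -5.32 (standard error 0.33). IRF5-NP replicate 3 was at 3.11 times its background. Within the samples numbered 1 the log2 difference was -4.38 for Chil3 and -4.47 for Chil4, and within the other numbers it was -5.77 and -5.87. The pair was thus lower in both of these comparisons, and the difference was smaller by more than 1 log2 unit between the samples numbered 1. The replicate numbers did not pair the samples, so that the samples numbered 1 are single samples set against each other.

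**Figure D1:**
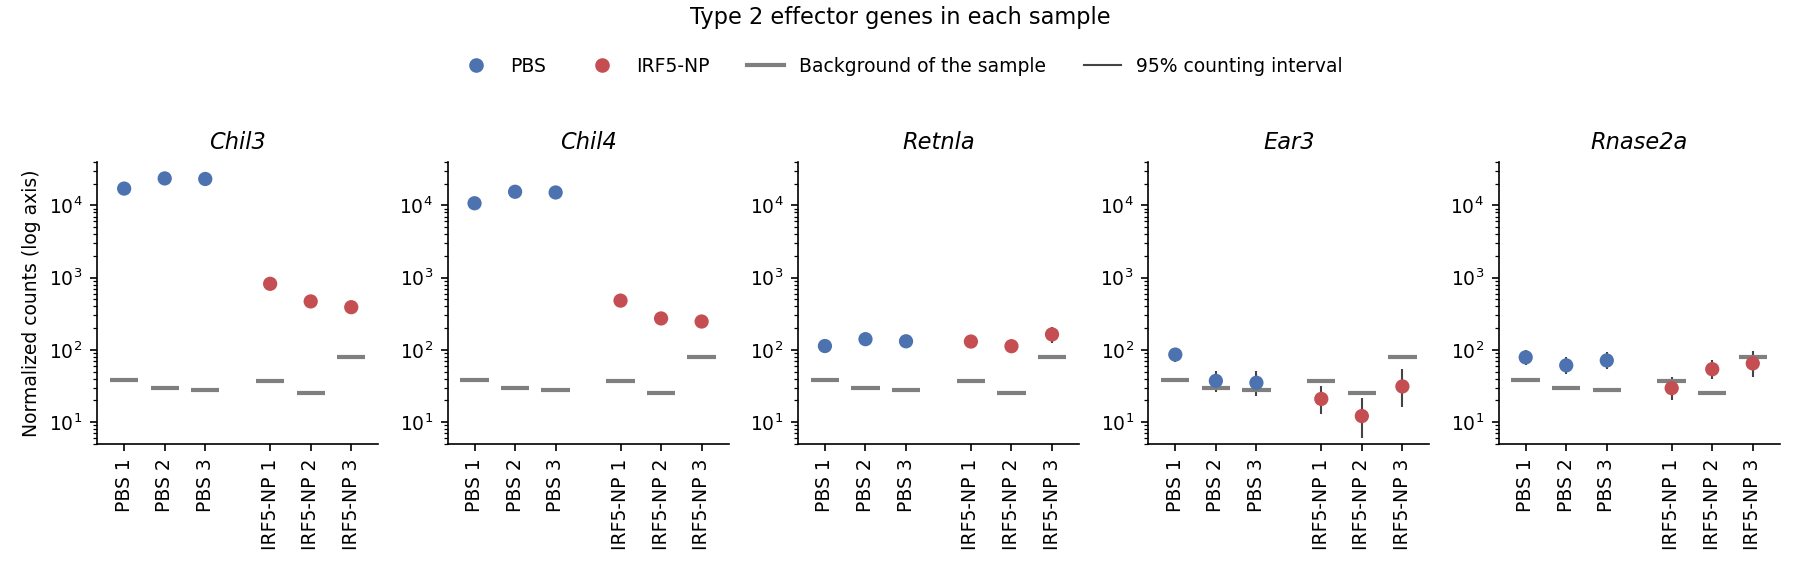
Normalized counts (log axis) of Chil3, Chil4, Retnla, Ear3 and Rnase2a in the 3 PBS and 3 IRF5-NP samples, with 95% counting intervals (Poisson) as thin lines and the background of each sample as a gray bar. Chil3 and Chil4 are separated between the groups by more than 1 order of the axis, Retnla is level, and Ear3 and Rnase2a lie near the gray bars.

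In the PBS samples the pair made up a visible part of all gene counts. Chil3 and Chil4 together took 1.46% of them in PBS replicate 1 (95% exact binomial interval 1.45 to 1.48%), 2.36% in PBS replicate 2 (2.33 to 2.38%) and 2.35% in PBS replicate 3 (2.32 to 2.38%). After IRF5-NPs the share was 0.106% (0.100 to 0.111%), 0.0420% (0.0389 to 0.0453%) and 0.0358% (0.0315 to 0.0406%) in replicates 1 to 3. These intervals and all counting intervals here cover counting error only. The largest treated share was below the smallest PBS share by more than 10-fold.

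The ratio of Chil3 to Chil4 counts lay in a narrow range in all samples. It was 1.60 (95% interval 1.56 to 1.64), 1.53 (1.50 to 1.56) and 1.54 (1.50 to 1.57) in PBS replicates 1 to 3. It was 1.71 (1.53 to 1.91), 1.72 (1.47 to 2.02) and 1.58 (1.21 to 2.06) in IRF5-NP replicates 1 to 3. The treated intervals overlap those of PBS replicate 1, and the ratio of IRF5-NP replicate 3 lies inside the PBS range. The log2 ratio was 0.65 ± 0.04 (SD, n = 2) in the PBS samples and 0.74 ± 0.07 (SD, n = 3) in the treated ones, a difference of 0.09 (standard error 0.06). The genes are close paralogs, and cross-binding of their probes was not tested, so that the measurements of the pair may not be separate. The ratio compares 2 probes and does not give the relative abundance of the transcripts.

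**Figure D2:**
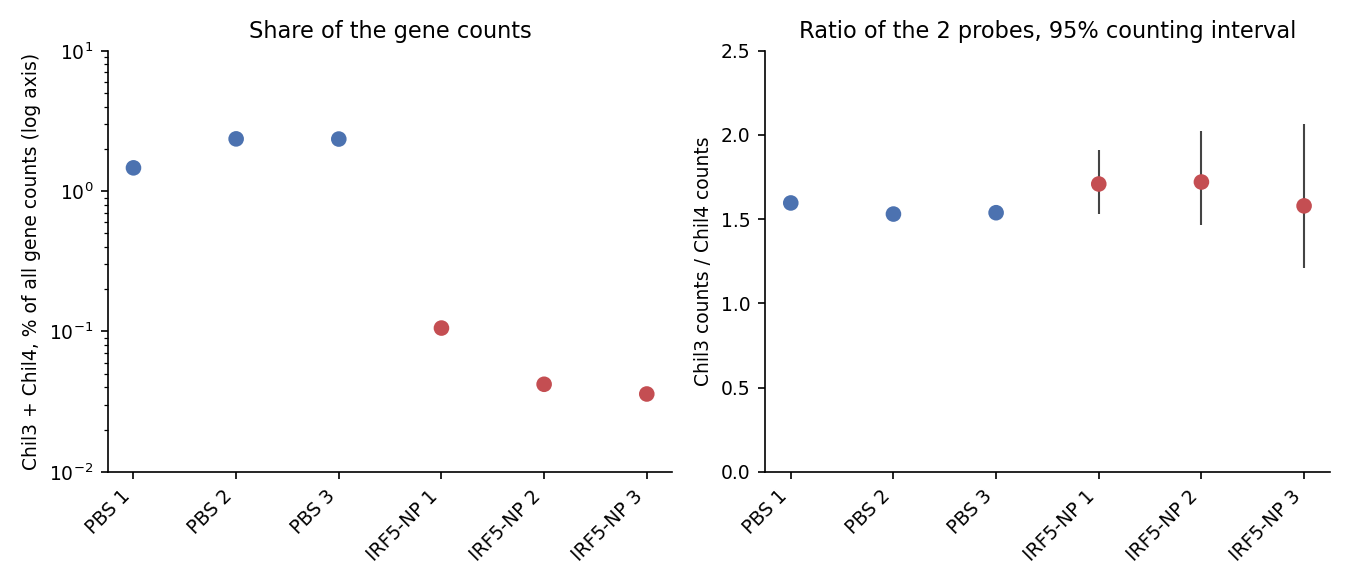
Left, Chil3 and Chil4 counts together as a percentage of all gene counts (log axis) in each sample. Right, Chil3 counts divided by Chil4 counts in each sample (axis from 0) with 95% counting intervals. The share lies between 1.46 and 2.36% with PBS and between 0.0358 and 0.106% with IRF5-NPs, and the ratio lies between 1.53 and 1.72.

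Retnla, which is induced by IL-4 together with the chitinase-like genes, was measured at 113, 141 and 131 normalized counts in PBS replicates 1 to 3 and at 130, 112 and 164 in IRF5-NP replicates 1 to 3. The groups overlapped, and both the lowest and the highest value were in the IRF5-NP group. Its PBS level was 125 ± 16.2 (SD, n = 2) and its IRF5-NP level 136 ± 26.0 (SD, n = 3), a log2 difference of 0.11 (standard error 0.26). It lay above background in all 6 samples, at 2.06 times background in IRF5-NP replicate 3 and between 2.99 and 4.72 times in the others. Behind these values stood between 63 and 137 counts per sample, and the interval of the highest sample, IRF5-NP replicate 3, ran from 126 to 209 normalized counts. The log2 difference was 0.20 within the samples numbered 1 and -0.0032 within the other numbers. A difference as large as that of the chitinase-like pair would have put treated Retnla values below background, and all 6 samples were above it.

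Ear3 was measured at 86.1, 37.2 and 35.1 normalized counts in PBS replicates 1 to 3 and at 20.9, 12.1 and 31.2 in IRF5-NP replicates 1 to 3. All IRF5-NP values were below all PBS values, but PBS replicate 3 and IRF5-NP replicate 3 were close, with counting intervals of 23.3 to 50.7 and 16.1 to 54.5 normalized counts. The values rest on 83, 36 and 28 counts with PBS and on 22, 11 and 12 counts with IRF5-NPs. The 3 PBS samples were above background, PBS replicates 2 and 3 by a factor of 1.25 each, and 0 of the 3 IRF5-NP samples were. The log2 difference of the deposited values was -1.44 (standard error 0.52), its size being set by treated values below background, and with the treated samples set to their background Ear3 was at least 1.31-fold lower. This bound rested on PBS replicate 1, since PBS replicates 2 and 3 lay below the mean background of the treated samples and gave no bound without it. The log2 difference of the deposited values was -0.82 without that sample.

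Rnase2a was measured at 78.8, 61.0 and 71.4 normalized counts in PBS replicates 1 to 3 and at 29.5, 54.0 and 65.0 in IRF5-NP replicates 1 to 3. IRF5-NP replicate 3 lay inside the PBS range, so that the groups overlapped, and IRF5-NP replicate 1 was the lowest sample. The 3 PBS samples and IRF5-NP replicate 2 were above background. The PBS level was 72.4 ± 9.06 (SD, n = 2) and the IRF5-NP level 49.5 ± 18.2 (SD, n = 3), a log2 difference of -0.61 (standard error 0.38). It was -1.39 within the samples numbered 1 and -0.15 within the other numbers, and -0.28 without IRF5-NP replicate 1. IRF5-NP replicates 1 and 3 were below background, so that these values are not measured differences. With both set to their background the mean level of Rnase2a, taken on the log2 scale, was 1.32-fold lower. This value carries no spread, and the background of IRF5-NP replicate 3, at 79.4 normalized counts, was above every PBS value. No bound on a fall of Rnase2a is read from it.

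Set side by side, the 5 genes did not move by the same amount. The log2 difference of Chil3 exceeded that of Chil4 by 0.09 (standard error 0.06), whereas Chil3 minus Retnla was -5.34 (standard error 0.53). Chil4 minus Retnla was -5.43 (standard error 0.49). The distance of the pair from the ribonucleases was not measured, because Ear3 was below background in 3 of 3 and Rnase2a in 2 of 3 IRF5-NP samples. With background subtracted before the log, the log2 differences were -5.39 for Chil3, -4.33 for Ear3 and -3.69 for Rnase2a, the ribonucleases with values at the floor. In 3 of the 5 genes, Chil3, Chil4 and Ear3, all IRF5-NP samples were below all PBS samples, as in 20.4% of all 754 genes, and nothing is read from this count because the genes were chosen on this contrast.

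The profile of each gene over the 5 samples was compared with 544 candidate genes, those above background in every sample of at least 1 group, as the root mean square difference of centered log2 values. Chil3 and Chil4 were 0.06 apart. The next nearest to both were the monocyte chemoattractant genes Ccl7, Ccl2 and Ccl12, at 0.84, 0.91 and 0.96 from Chil3 and at 0.88, 0.96 and 1.00 from Chil4. Ccl7 was at 3062, 2621 and 2511 normalized counts with PBS and at 390, 151 and 190 with IRF5-NPs. Ccl7, Ccl2 and Ccl12 were also lower after IRF5-NPs, with log2 differences of -3.64, -3.52 and -3.30. These are smaller than the differences of the pair, and the distances include this gap in size. Retnla was nearest to Hdac6 (0.07), Il1b (0.09) and Map3k4 (0.09), genes that were also level between the groups. No neighbors are given for Ear3 and Rnase2a, whose treated values lay mostly below background. These distances describe the profiles and include the group difference.

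Across the panel, 72 of the 754 genes passed an adjusted p of 0.05 by limma with Benjamini-Hochberg adjustment (9.55%), 53 of them lower (7.03%) and 19 higher (2.52%) after IRF5-NPs. Shifting each sample to a common median gave 36 lower and 42 higher genes, and quantile normalization gave 40 lower and 35 higher, since these scalings raised the median log2 difference of all genes by 0.24 and 0.13. Without IRF5-NP replicate 3 the count was 21, without PBS replicate 1 it was 35, and without IRF5-NP replicate 2 it was 41. Each of these fits has 1 sample fewer, and without PBS replicate 1 the PBS group is 1 sample, assumed to vary like the treated samples, which alone give the spread. These counts are the background for the lists that follow, which were also chosen with earlier results of the data known.

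A list of 30 other type 2 genes had 25 members on the panel, of which 23 were above background in at least 1 sample. Of the 25 genes, 4 were lower, 0 were higher and 21 did not pass. At an unadjusted p under 0.05 limma gave 9 lower and 3 higher, against 191 of all 754 genes (25.3%), and the unpaired test named in the study's methods gave 4 and 2, against 125 (16.6%), with 0 of the 25 genes past the threshold after Benjamini-Hochberg adjustment. The median log2 difference of the list was -0.42, against -0.03 for all genes. Mmp12, macrophage elastase, had 431, 491 and 508 normalized counts in PBS replicates 1 to 3 and 95.2, 79.4 and 67.6 in IRF5-NP replicates 1 to 3, with no overlap, and fell by 2.52 on the log2 scale (standard error 0.25, limma adjusted p = 0.000929). IRF5-NP replicate 3 was below background for Mmp12, so that the size of the fall rests partly on a value at the floor, and without that sample the log2 difference was -2.40. Ccl8, a monocyte and eosinophil attracting chemokine, had 3474, 991 and 939 normalized counts with PBS and 264, 304 and 335 with IRF5-NPs. It fell by 2.61 on the log2 scale (limma adjusted p = 0.0158), with PBS replicate 1 well above the other PBS samples, and the log2 difference was -1.68 without PBS replicate 1. Il1rn, the interleukin-1 receptor antagonist, fell by 1.25 on the log2 scale (limma adjusted p = 0.0360), and Cdh1, E-cadherin, by 1.19 (limma adjusted p = 0.0363), each with no overlap between the groups. Cdh1 was above background in 1 of the 3 treated samples, so that the size of its fall is not measured. With background subtracted none of the 4 passed, with limma adjusted p = 0.412 for Mmp12, 0.152 for Ccl8, 0.179 for Il1rn and 0.307 for Cdh1, and the log2 difference of Mmp12 was -4.87. The 4 lower genes became 1, 2 and 1 when IRF5-NP replicates 1, 2 and 3 were omitted in turn, and 6 when PBS replicate 2 was. Mmp12 passed in each of these, whereas the call of Ccl8 was lost on omitting treated replicate 1 or 3, that of Il1rn on omitting any 1 of the treated samples, and that of Cdh1 on omitting any 1 of these or PBS replicate 1. With any 1 treated sample omitted, the log2 differences lay between -2.69 and -2.52 for Ccl8 and between -1.32 and -1.10 for Il1rn. Those of Cdh1 lay between -1.25 and -1.14. Without PBS replicate 1 the log2 differences were -1.68 for Ccl8, -1.65 for Il1rn and -1.28 for Cdh1.

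Other type 2 genes did not pass, in both directions. Mrc1, the mannose receptor, had 8936, 2145 and 2094 normalized counts with PBS and 1667, 840 and 883 with IRF5-NPs, a log2 difference of -2.02 (limma adjusted p = 0.0664). Its groups did not overlap, but PBS replicate 1 stood further from the other PBS samples than these did from the treated ones. The scavenger receptor gene Cd163 was at -2.24 (limma adjusted p = 0.0579) and the decoy receptor gene Il1r2 at -2.78 (limma adjusted p = 0.0599), also with the highest value in PBS replicate 1. Without PBS replicate 1 the log2 differences were -0.98 for Mrc1, -1.02 for Cd163 and -1.36 for Il1r2, and with background subtracted that of Il1r2 was -5.43. Among genes with higher values after IRF5-NPs were Serpinb2, a protease inhibitor, at 2.25 (limma adjusted p = 0.0968), Alox15, a lipoxygenase, at 1.61 (limma adjusted p = 0.0881), and Fn1, fibronectin, at 1.45 (limma adjusted p = 0.0683). None of these passed the threshold, and without PBS replicate 1 the log2 differences were 0.95 for Serpinb2, 0.69 for Alox15 and 0.94 for Fn1. With the numbers 1 against the others as a block in 6 separate samples, all 6 of these genes passed, Mrc1 with limma adjusted p = 0.00130, Cd163 with 0.0173, Il1r2 with 0.00248, Serpinb2 with 0.00195, Alox15 with 0.00830 and Fn1 with 0.00783. With the replicate block 5 of the 6 passed, and Fn1 did not. Here and below, the fits with 6 separate samples, with or without a block, treat PBS replicates 2 and 3 as separate. These replicates differed by no more than sampling noise, so that the spread may be understated. The replicate numbers did not pair the samples. Ccl11, an eosinophil attractant, and Ccl1 were not above background in any sample.

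**Figure D3:**
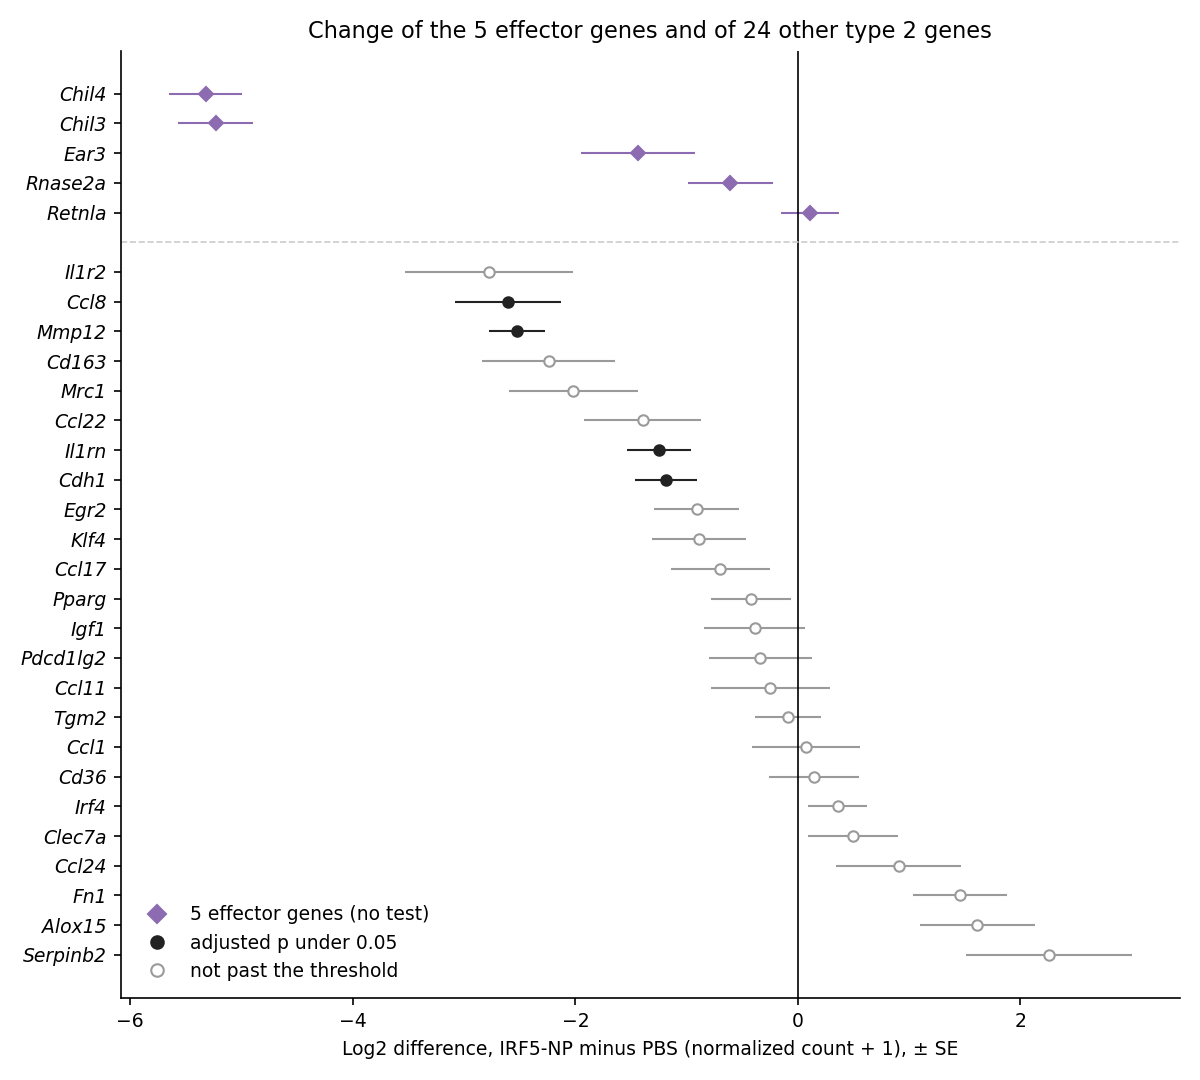
Log2 difference of normalized counts, IRF5-NPs minus PBS, with its standard error, for the 5 effector genes (diamonds, no test) and for 24 other type 2 genes (filled circles, limma adjusted p under 0.05; open circles, not past the threshold). Chil3 and Chil4 lie near -5, Retnla lies near 0, and the other type 2 genes spread from -2.78 to 2.25.

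Of 23 genes for type 2 cytokines, their receptors and their signaling, 13 were on the panel, and 1 was lower, 0 were higher and 12 did not pass. The cytokine genes Il4, Il13, Il5, Il33 and Il25 and the receptor gene Il5ra were not above background in any sample, so that differences in them were not detectable. Il4ra, the shared receptor chain for IL-4 and IL-13, had 4378, 2700 and 2636 normalized counts with PBS and 1892, 1660 and 1476 with IRF5-NPs. The groups did not overlap, and the log2 difference was -1.03, or -0.68 without PBS replicate 1. In the main fit Il4ra did not pass (limma adjusted p = 0.0503). It passed in 6 of 18 alternatives, those with 6 separate samples, with either block, with array weights and without PBS replicate 2 or 3, and its adjusted p ranged from 0.00245 to 1, the latter with the methods' test and Benjamini-Yekutieli adjustment. Stat6 lay between 1677 and 1980 normalized counts with PBS and between 1509 and 1959 with IRF5-NPs, with overlapping groups (log2 difference -0.05, limma adjusted p = 0.917). Socs3, an inhibitor of cytokine signaling, was the member past the threshold and fell by 1.03 on the log2 scale (limma adjusted p = 0.0380). This call was lost on leaving out PBS replicate 1 or either of the treated replicates 2 and 3, with log2 differences between -0.99 and -0.82, and on subtracting background (limma adjusted p = 0.149). The gene of the delivered factor, Irf5, lay between 1929 and 2573 normalized counts with PBS and between 1960 and 2358 with IRF5-NPs, and whether its probe detects the delivered mRNA was not tested.

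Among 19 relatives of the 5 genes, 3 were on the panel. Retnlb was not above background in any sample, and Ear6 and Rnase2b were each above it in 1 sample. None of the 3 passed the test, and at this depth differences in them were not detectable. The behavior of other chitinase-like or ribonuclease genes was not analysed here.

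Markers of cell types that the sort could hold moved between the same samples. Of 8 macrophage genes 7 were measured, the most abundant being Itgam, and their sum was 68042, 66405 and 65269 normalized counts in PBS replicates 1 to 3 and 50391, 106290 and 100475 in IRF5-NP replicates 1 to 3. The sum was lowest in IRF5-NP replicate 1 and highest in IRF5-NP replicates 2 and 3, so that the groups overlapped. Among these genes 1 was lower and 0 were higher, and Mertk, an efferocytosis receptor, fell by 1.23 on the log2 scale (limma adjusted p = 0.0218). Adgre1 did not pass (log2 difference 1.15, limma adjusted p = 0.181), nor did it with 6 separate samples (0.112). It passed as higher with the replicate block (0.0481) and with a block of number 1 against the others (0.0117). It also passed with array weights (0.0313) and without IRF5-NP replicate 1 (0.0242). Of 10 genes of resident peritoneal macrophages 4 were measured, with Marco the most abundant, and their sum was 5666, 8863 and 8709 normalized counts with PBS and 10534, 28635 and 27320 with IRF5-NPs. The treated samples were all above the PBS samples, and 2 genes were higher, the phosphatidylserine receptor gene Timd4 by 2.48 on the log2 scale (limma adjusted p = 0.0155) and Selp by 2.19 (limma adjusted p = 0.0423), the latter at 1.38 without PBS replicate 1. Their part in the difference of the chitinase-like pair was not tested.

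Of 8 monocyte genes 5 were measured, and 0 passed in either direction. Their sum was 15151, 15565 and 15542 normalized counts with PBS and 18393, 20650 and 24155 with IRF5-NPs, with S100a4 the most abundant. Ccr2 overlapped between the groups, and Ly6c1, at 927, 1534 and 1510 with PBS and 839, 661 and 707 with IRF5-NPs, was lower without passing (log2 difference -0.70, limma adjusted p = 0.140). Ly6c1 passed with 6 separate samples (limma adjusted p = 0.0451) and with a block of number 1 against the others (0.0222). With the replicate block it did not pass (0.0635). Its log2 difference was -1.06 without PBS replicate 1. Of 12 neutrophil genes 10 were measured, 1 lower and 1 higher, with sums of 7276, 2364 and 2320 with PBS and 2655, 1661 and 1970 with IRF5-NPs. The sum of PBS replicate 1, mostly S100a8 and S100a9, stood far above the others. Mmp8 was the lower gene (limma adjusted p = 0.0158), but it was above background in 1 of the 3 treated samples and did not pass with background subtracted (limma adjusted p = 0.162), so that the size of its fall is not measured. Csf3r rose by 0.88 on the log2 scale (limma adjusted p = 0.0459). Mpo and Camp were not above background in any sample. Of 8 dendritic cell genes 6 were measured, Xcr1 never above background, and the most abundant of them, Itgax, which encodes CD11c, fell by 1.88 on the log2 scale (limma adjusted p = 0.00589). The dendritic cell sums were 389, 433 and 428 normalized counts with PBS and 222, 178 and 231 with IRF5-NPs, with no overlap. However, 0 of the 6 dendritic cell genes were above background in all samples, so that the sums include values at the floor. Of the 6 genes, 1 was lower and 1 was higher in every treated sample than in every PBS sample. The part of these cells in the difference of the chitinase-like pair was not tested.

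Eosinophils are a known source of Ear transcripts, and 7 of 8 eosinophil markers were measured. The granule protein genes Epx, Prg2 and Prg3, the eotaxin receptor gene Ccr3 and Il5ra were not above background in any sample. Siglecf was above background in 1 sample and Gata1, the most abundant, in 2 samples, all with PBS, and 0 of the 7 passed. The sum of the list was 159, 129 and 106 normalized counts with PBS and 110, 116 and 164 with IRF5-NPs, with overlapping groups. Of 9 mast cell and basophil genes 6 were measured and 2 were higher, Hdc, the enzyme of histamine synthesis, by 1.86 on the log2 scale (limma adjusted p = 0.0218), and Cpa3, a mast cell protease (limma adjusted p = 0.0327), which was above background in 2 IRF5-NP samples and no PBS sample. Their sum, most of it Hdc, was 243, 343 and 366 with PBS and 564, 975 and 941 with IRF5-NPs, whereas Ms4a2 and Gata2 were never above background. Of 9 lymphocyte genes the B cell gene Ms4a1 alone was measured, with 25.9, 18.6 and 16.3 normalized counts with PBS, not above background, and 50.5, 60.6 and 75.4 with IRF5-NPs, above background in replicates 1 and 2 alone (limma adjusted p = 0.0351). None of 7 tumor and mesothelial genes was measured. Without PBS replicate 1, and likewise without IRF5-NP replicate 3, Mertk, Timd4, Selp, Mmp8, Csf3r, Hdc, Cpa3 and Ms4a1 did not pass, in fits with 1 sample fewer, whereas Itgax passed with any 1 sample left out. The directions of the genes that did not pass were kept, with log2 differences in these 2 fits of -0.89 and -1.25 for Mertk, 2.14 and 2.23 for Timd4, 0.91 and 0.77 for Csf3r and 1.52 and 1.71 for Hdc. Mertk, Selp, Cpa3 and Ms4a1 also did not pass on omitting IRF5-NP replicate 1 or IRF5-NP replicate 2. Mmp8 did not pass without IRF5-NP replicate 1, nor Csf3r without IRF5-NP replicate 2. With background subtracted, none of the 9 marker calls passed, with limma adjusted p = 0.124 for Mertk, 0.162 for Timd4, 0.270 for Selp, 0.127 for Csf3r, 0.181 for Hdc, 0.525 for Cpa3 and 0.512 for Ms4a1. In a fit without trend Mertk, Selp, Csf3r and Hdc did not pass. Itgax was above background in 2 of the 3 treated samples, and with background subtracted its log2 difference was -4.81 and did not pass (limma adjusted p = 0.288).

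**Figure D4:**
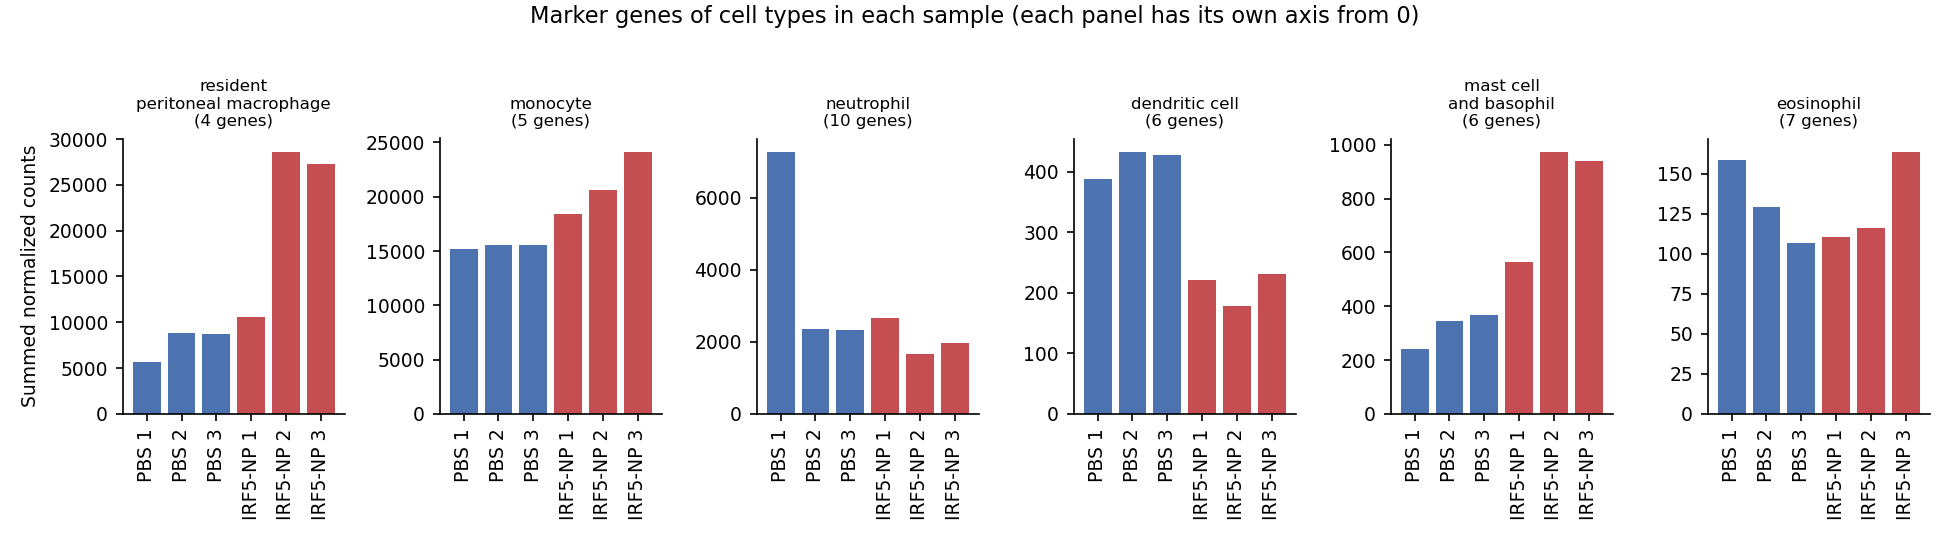
Summed normalized counts of the measured marker genes of 6 cell types in each PBS (blue) and IRF5-NP (red) sample, with an axis from 0 for each panel. The resident macrophage, monocyte and mast cell sums are higher and the dendritic cell sum is lower in all IRF5-NP samples, the neutrophil sum is highest in PBS replicate 1, and the eosinophil sums overlap. No dendritic cell or eosinophil gene was above background in all samples.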

How the data were processed

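The deposited signal is a linear nCounter count after normalization, 1 value per probe and sample. The authors, per the study's methods for cultured macrophages, used NanoStringQCPro for quality control and nSolver to scale counts by the geometric mean over housekeeping genes. A log2 step is also described, but the deposited values are linear. The table holds 768 probes, 754 for genes, 8 negative and 6 positive controls. The gene values were whole multiples of 1 factor per sample within 0.01 normalized counts, which gave the counts used for depth, background, counting intervals and the comparison of replicates. No count test was run on them, because a check of the units did not accept the IRF5-NP values as recovered whole counts. The counts and counting intervals of the treated samples carry this doubt.

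Groups came from the sample labels. The 5 genes and all gene lists were chosen with earlier results of these data known. All 754 genes were fitted with limma 3.58.1 in R 4.3.3 (lmFit, eBayes with trend) on log2(normalized count + 1), two-sided, with Benjamini-Hochberg adjustment and a threshold of 0.05, and the fit was tested on simulated data. No filter was applied, and 124 genes were never above background. Text names were limited to the 5 genes, the delivered genes, members of the lists (those past the threshold, with the largest differences, or at background or most abundant) and the 3 genes nearest to Chil3, Chil4 and Retnla. Of the type 2 list, 1 gene is counted but not reported here. The standard errors of single genes are those of the fit. Those of differences between genes come from the SD of these genes alone, pooled within the groups, and are not directly comparable. Promoters of 4 of the 5 genes were read from the RefSeq table, in which Ear3 had no entry, and those of Chil3 and Chil4 were aligned with Biopython 1.88. Cross-binding was not tested for any probe, including those of Ear3 and Rnase2a. Alternatives changed the samples, the block, the scaling, the pseudocount, the background, the test, the variance prior and the weights. Intervals used scipy 1.17.1 in Python 3.11.15, and figures matplotlib 3.10.9.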

Additional observations from a re-analysis of the deposited data

How the results depend on the processing

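The log2 differences of Chil3 and Chil4 kept their direction under the 13 alternatives that give them a value (not the filter, trend, weights and t-test settings), between -5.55 and -4.99 and between -5.62 and -5.08, and that of Retnla ranged from -0.03 to 0.35 around 0. Background subtraction moved Ear3 to -4.33 and Rnase2a to -3.69, since treated values at the floor then set the difference. The replicate numbers did not pair the samples, with correlations of deviations of 0.158, 0.178 and 0.0953 over 482 genes. Counting the 6 samples separately gave 121 genes past the threshold (84 lower, 37 higher), and 1 type 2 gene higher. A replicate block on these gave 135 (83 lower, 52 higher), with 7 type 2 genes lower and 2 higher, and a block of number 1 against the others gave 204 (124 lower, 80 higher), with 10 and 4. Array weights gave 125 (83 lower, 42 higher), with 7 and 3 type 2 genes. The common median gave 42 higher and quantile normalization 35 higher, each with 2 type 2 genes lower and 1 higher. Background subtraction gave 24 (19 lower, 5 higher) and a fit without trend 41 (33 lower, 8 higher), and type 2 genes lower were 0 with background subtraction. The methods' t-test gave 0 genes lower and 0 higher after Benjamini-Hochberg or Benjamini-Yekutieli adjustment, against 125 at an unadjusted p under 0.05. Leaving out single samples gave 21 to 83 genes, 19 to 59 lower and 2 to 24 higher, with 1 to 6 type 2 genes lower, and without PBS replicate 1 the spread came from the treated samples alone. Stat6 turned sign near 0, to 0.18 with a common median, 0.24 with quantile normalization, 0.0094 with array weights, and from -0.13 to 0.06 with single samples left out, with 0.0609 when PBS replicate 1 and 0.0556 when IRF5-NP replicate 1 was omitted. Il1rn, Cdh1 and Socs3 did not pass with either of these scalings. Il1rn (limma adjusted p = 0.0875) and Socs3 (limma adjusted p = 0.0928) also did not pass in the fit without trend. The cause of these shifts was not tested. A planned count test on the recovered counts was not run. Ear3, Rnase2a and most eosinophil genes lay at or near background, where the size of a difference could not be measured.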
